A study of Mus musculus and Homo sapiens with 32 samples.

Results

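The genes described here encode histone methyltransferases of the KMT2 and NSD families together with SETD2: Kmt2a, Kmt2b, Kmt2c, Kmt2d, Nsd1 and Setd2. They were chosen by name, and all 6 were found among the 11196 mouse genes for which exon blocks are listed in the deposited tables of the Mettl3 comparison. They account for 156 of the 33473 regions in which enrichment for N6-methyladenosine (m6A) was compared between genotypes. The 6 genes are very long in listed sequence, between 8175 listed bp for Setd2 and 19405 listed bp for Nsd1. Only 630 of the 11196 genes reach the length of Setd2. The length of Nsd1 includes a block of 9388 bp, part of which only the table of those regions lists. By the exon blocks of the genotypes' peak lists, Nsd1 had 12384 bp. That is less than Kmt2a (15748 bp), Kmt2d (15684 bp) and Kmt2c (15225 bp).

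KMT2A, KMT2B, KMT2C and KMT2D are SET-domain enzymes that methylate lysine 4 of histone H3 (H3K4) within COMPASS-type complexes, which share the core subunits WDR5, RBBP5, ASH2L and DPY30. KMT2A and KMT2B act mainly at promoters, with menin as a partner, and KMT2C and KMT2D act mainly at enhancers, where they place H3K4 monomethylation. NSD1 dimethylates lysine 36 of the same histone (H3K36), and SETD2 trimethylates it along genes that are being transcribed. m6A is written on nascent RNA by a complex whose catalytic subunit is METTL3, and it is known to be concentrated in long internal exons and around stop codons.

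m6A-CT maps this mark in nuclei: RNA paired with cDNA is tagmented where an anti-m6A antibody has bound, and input libraries are made from nuclei with no antibody. The genotype comparison used C57BL/6 Mettl3-/- (KO) mouse embryonic stem cells and C57BL/6 wild-type cells, both profiled with the MilliporeSigma antibody. Peak lists came from CF1 mouse embryonic fibroblasts (MEF) and expanded potential stem cells (EPSC) of the E14 line, both at 100K nuclei, and from the E14 mouse embryonic stem cell line, where the input of nuclei was 5K, 25K or 100K (1K is 1000 nuclei), all with the Synaptic Systems antibody. The series holds 32 libraries in 16 groups of 2, an m6A-CT group and an input group for each condition, and a human line that was not used here. The labels do not give the clones behind the Mettl3 KO cells, the deleted part of the gene or whether the replicates were separate cultures.

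The genotype table holds 1 column for each genotype and library kind, with both replicates in it, so no spread between replicates can be given. Its columns rest on 37532658 reads for Mettl3 KO m6A-CT, 51031598 for Mettl3 KO input, 39310394 for wild-type m6A-CT and 45090626 for wild-type input. Regions of Lars2 and Rn45s took a large part of these reads: the share outside them was 45.5% and 19% in Mettl3 KO m6A-CT and input, against 63.5% and 23.6% in wild-type, so reads per 1000000 (RPM) depend on whether they are counted. Mettl3 itself was listed with 1 region of 462 reads, at chr14:52919391-52919765, whose input level was 2.47 RPM in Mettl3 KO cells and 1.71 RPM in wild-type cells. The authors' deposited table has its m6A-CT over input higher in Mettl3 KO, at a log2 change of 0.80 (FDR 0.0376). This region does not show a loss of Mettl3 RNA, and with the deleted part not given it does not check the labels. Among cell type markers, 1 of 10 embryonic stem cell genes had a peak in MEF, 5 in EPSC and 7 in E14 cells at 100K, and 4 of the 5 fibroblast genes that could be matched had one in MEF and 0 in the other lists. Of the 4 endothelial, blood and epithelial genes that could be matched, 0 had a peak in MEF, 1 in EPSC and 1 in E14 cells at 100K. Intervals below cover counting error only, as PCR reads that carry no molecular identifier are not independent molecules.

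The first comparison asks how m6A-CT enrichment over these transcripts differed when the methyltransferase METTL3 was missing. All 6 genes kept only part of their enrichment in Mettl3 KO cells. Every one of the 156 regions was lower in Mettl3 KO at a false discovery rate (FDR) under 0.05 in the authors' deposited table, where 88.8% of all regions were called lower. That table lists almost only regions past this threshold, so the count says little about the 6 genes. Of the 290 genes with at least 13 regions, the number Setd2 has, 87.2% had all of their regions lower.

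Over their summed regions, the m6A-CT to input ratio of the RPM values was higher for each of the 6 genes than the median gene, in both genotypes. Kmt2a had the highest ratio in wild-type cells: 5.49 (95% counting interval 5.18 to 5.82) in Mettl3 KO cells, against 14 (13.2 to 14.9) in wild-type cells. For Setd2 the ratio was 5.66 (5.34 to 6) in Mettl3 KO cells and 10.6 (10 to 11.3) in wild-type cells. For Kmt2c it was 4.8 (4.52 to 5.09) in Mettl3 KO cells and 9.47 (9.02 to 9.94) in wild-type cells. Within each of these 3 genes the intervals of the genotypes lay far apart. With all reads counted, Mettl3 KO cells still held several times the input.

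Nsd1 came next, with 4.25 (4.13 to 4.37) in Mettl3 KO cells and 7.97 (7.76 to 8.18) in wild-type cells. The promoter-type enzyme Kmt2b and the enhancer-type enzyme Kmt2d stood together at the low end. Kmt2b had a ratio of 2.46 (2.38 to 2.54) in Mettl3 KO cells and 4.62 (4.49 to 4.75) in wild-type cells. Kmt2d had 2.41 (2.35 to 2.47) in Mettl3 KO cells and 4.57 (4.49 to 4.66) in wild-type cells, so these neighbours in the order did not differ beyond counting error in either genotype. The medians over the 8786 genes with at least 50 reads were 1.93 in Mettl3 KO cells and 3.29 in wild-type cells.

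**Figure D1:**
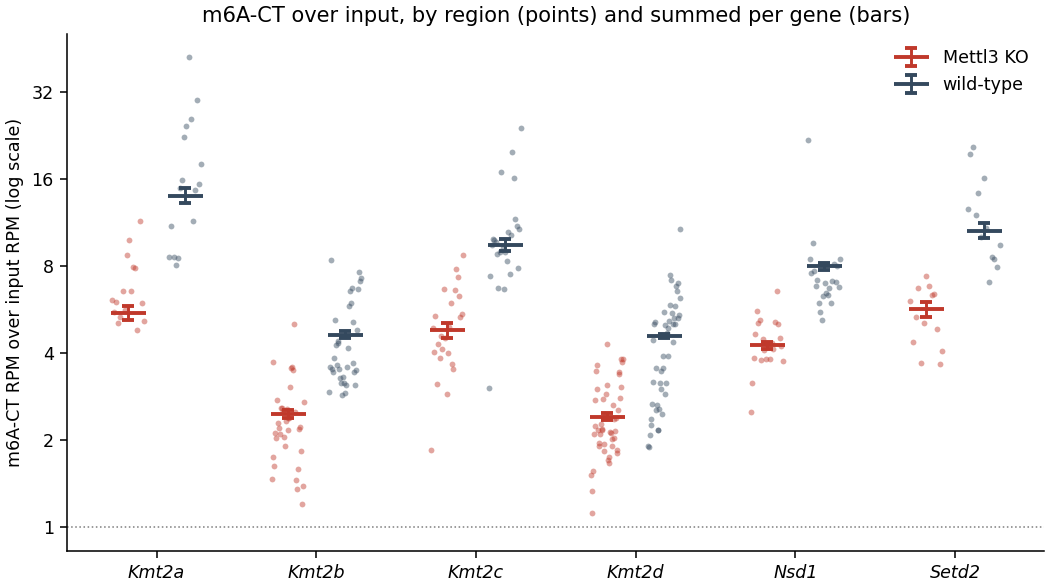
m6A-CT RPM over input RPM (log scale) for each gene in Mettl3 KO (left, red) and wild-type (right, blue). Points are single regions, horizontal bars are the summed regions with their 95% counting interval. Kmt2a is highest in wild-type at 14, and Kmt2b and Kmt2d are lowest at 4.62 and 4.57.

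The order of these ratios was nearly the reverse of the order of the input levels. Per kb of region, Kmt2b and Kmt2d had the most input, 15.3 and 11.1 RPM per kb in Mettl3 KO cells and 17.9 and 16.6 RPM per kb in wild-type cells. Nsd1 had 6.6 RPM per kb in Mettl3 KO cells and 7.57 in wild-type cells, and Setd2 had 3.81 in Mettl3 KO cells and 3.73 in wild-type cells. Kmt2c had 2.35 RPM per kb in Mettl3 KO cells and 3.47 in wild-type cells, and Kmt2a had 2.13 in Mettl3 KO cells and 2.11 in wild-type cells. Over all 8786 genes the wild-type ratio and input per kb had a Spearman coefficient of -0.63, given as a description because input is the denominator of that ratio.

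In input, the RPM of Kmt2c and Kmt2d was lower in Mettl3 KO cells. The log2 difference between Mettl3 KO and wild-type input was -0.58 (-0.61 to -0.54) for Kmt2d and -0.56 (-0.67 to -0.46) for Kmt2c. It was -0.23 (-0.28 to -0.18) for Kmt2b and -0.20 (-0.25 to -0.15) for Nsd1. Kmt2a, at 0.02 (-0.09 to 0.13), and Setd2, at 0.03 (-0.08 to 0.14), had intervals that span 0. With the reads of Lars2 and Rn45s left out, Kmt2d and Kmt2c stayed below 0 at -0.26 and -0.25, while Kmt2b turned to 0.09 and Nsd1 to 0.12, with the median over all genes at 0.29 instead of -0.03. In such bulk libraries fewer cells that make an RNA and less of it per cell cannot be told apart.

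Setting the genotypes' ratios against each other, Kmt2a was the gene whose enrichment fell most. Its log2 change on the RPM scale was -1.35 (-1.47 to -1.24), which left 39.1% of the wild-type ratio. The other 5 genes were close to one another: -0.98 (-1.09 to -0.87) for Kmt2c, -0.92 (-0.97 to -0.88) for Kmt2d, and -0.91 for Kmt2b (-0.97 to -0.85), Nsd1 (-0.96 to -0.85) and Setd2 (-1.03 to -0.79), with 50.7% to 53.4% of the wild-type ratio left. The intervals of these 5 overlap one another, and that of Kmt2a overlaps none of them. The median gene changed by -0.82, with quartiles of -1.32 and -0.33, so 5 of the 6 genes lay near the middle of all genes and Kmt2a lay just below the lower quartile.

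Leaving out the reads of Lars2 and Rn45s moved the median of all genes to -0.65, and the 6 genes to values between -1.19 for Kmt2a and -0.74 for Kmt2b, Nsd1 and Setd2. The level of enrichment moved more than its change. With those reads out, the ratio was 1.02 in Mettl3 KO cells and 1.71 in wild-type cells for Kmt2b. For Kmt2d it was 1 in Mettl3 KO cells and 1.7 in wild-type cells. For Kmt2a it was 2.29 in Mettl3 KO cells and 5.21 in wild-type cells. Setd2 had 2.36 in Mettl3 KO cells and 3.94 in wild-type cells, Kmt2c 2 and 3.51, and Nsd1 1.77 and 2.96. Whether Kmt2b and Kmt2d kept any enrichment over input in Mettl3 KO cells therefore depended on the scaling.

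At the level of regions, and with all reads counted, the RPM ratio was at least 2 in 131 of the 156 regions in Mettl3 KO cells, against 47.3% of all regions, and in 154 of them in wild-type cells, against 73.6% of all regions. The ratio was lower in Mettl3 KO cells in 155 of the 156 regions, against 87.5% of all regions. The 1 exception was a 150-bp region of Kmt2d, chr15:98688486-98688635, with a ratio of 2.28 in Mettl3 KO cells and 2.17 in wild-type cells. The authors' deposited table gives it a log2 change of -0.44, the smallest of the 156. The values there lay below the log2 change of the RPM ratio in all 156 regions, by a median of -0.48 and with single differences of -0.85 to -0.05; the cause was not tested.

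The region with the most reads in each gene shows what these ratios rest on. In Kmt2a this was the exonic stretch of 4200 bp at chr9:44626379-44630578 on the minus strand (mm9, as all positions here). m6A-CT gave 56.4 RPM and input 11.7 RPM in Mettl3 KO cells, against 153 and 10.4 RPM in wild-type cells, and the log2 change in the authors' deposited table was -2.12 (counting SE 0.10, FDR 3.48e-105). The loss lay in the antibody libraries, and input was slightly higher in Mettl3 KO cells.

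In Kmt2d the region of 2925 bp at chr15:98674036-98676960, minus strand, had 49.7 RPM in m6A-CT and 26.1 RPM in input of Mettl3 KO cells, against 229 and 38.9 RPM in wild-type cells. Its log2 change in the authors' deposited table was -2.09 (counting SE 0.06, FDR 9.93e-231). Here both library kinds were lower in Mettl3 KO cells, m6A-CT more so than input. In Kmt2b the region of 2000 bp at chr7:31370035-31372034, minus strand, had 49.6 and 13.4 RPM in m6A-CT and input of Mettl3 KO cells, against 137 and 16.3 RPM in wild-type cells, with a log2 change of -1.64 (counting SE 0.09) in the authors' deposited table. In Kmt2c the region of 1875 bp at chr5:24819818-24821692, minus strand, had 20.9 and 4.64 RPM in Mettl3 KO cells, against 60.4 and 6.52 RPM in wild-type cells, with -1.53 (counting SE 0.14) in the authors' deposited table. In all 4 KMT2 genes m6A-CT over these regions was far lower in Mettl3 KO cells, by more than the input differed.

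Among the H3K36 enzymes, the most-read region of Nsd1 was its last, 6175 bp at chr13:55413503-55419677 on the plus strand. It had 147 RPM in m6A-CT and 39.3 RPM in input of Mettl3 KO cells, against 366 and 43.4 RPM in wild-type cells, with a log2 change of -1.69 (counting SE 0.05) in the authors' deposited table. In Setd2 it was the first region, 4275 bp at chr9:110449716-110453990 on the plus strand, with 63.6 and 10.5 RPM in Mettl3 KO cells, against 115 and 9.11 RPM in wild-type cells, and -1.50 (counting SE 0.10) in the authors' deposited table. The most-read region was called lower in all 6 genes, as it was in 87.1% of the genes in the table.

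Enrichment along single transcripts was uneven. In Mettl3 KO cells the ratio of Kmt2a regions spanned 4.81 to 11.42, that of Kmt2c regions 1.84 to 8.74, and that of Kmt2d regions 1.12 to 4.31. In wild-type cells the same regions spanned 8.08 to 42.21 for Kmt2a, 3.03 to 23.95 for Kmt2c and 1.89 to 10.77 for Kmt2d. The ranges were narrower in Mettl3 KO cells for Kmt2c and Kmt2d. For Kmt2a the highest wild-type value comes from a region of 100 bp with 5 wild-type input reads, so the width of its range is uncertain.

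In Kmt2d the uneven part was the 3' side. Split at the middle of the listed exonic sequence, the 27 regions on the 5' side had a summed ratio of 2.39 in Mettl3 KO cells and 3.72 in wild-type cells, and the 19 regions on the 3' side had 2.45 in Mettl3 KO cells and 6.18 in wild-type cells. Mettl3 KO cells thus had nearly the same ratio on both sides, and wild-type cells a higher one on the 3' side. The log2 change was -0.64 (-0.69 to -0.58) on the 5' side and -1.34 (-1.41 to -1.26) on the 3' side. The last region, 2900 bp long at chr15:98662100-98664999, had a ratio of 3.80 in Mettl3 KO cells and 10.77 in wild-type cells.

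Kmt2a showed the same split. Its 12 regions on the 5' side had a ratio of 6.31 in Mettl3 KO cells and 10.8 in wild-type cells, with a change of -0.78 (-0.97 to -0.59). Its 4 regions on the 3' side had 5.01 in Mettl3 KO cells and 16.1 in wild-type cells, with a change of -1.68 (-1.83 to -1.53). Of the 15732 reads on that side, 9191 lie in the most-read region and 5945 in the last region. The most-read region runs from 6.323 to 10.523 of 16.248 kb, across the middle, and was counted whole on the 3' side. The first region of Kmt2a, 2625 bp at chr9:44655511-44658135, was the least changed, with a ratio of 6.12 in Mettl3 KO cells and 8.58 in wild-type cells.

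The other 4 genes did not share this split. The changes on the 5' and 3' sides were -0.92 and -0.90 for Kmt2b, -1.04 and -0.86 for Kmt2c, -1.07 and -0.83 for Nsd1, and -1.07 and -0.82 for Setd2, where the 5' side is the first region alone. For Nsd1 the intervals of the 2 sides, -1.18 to -0.97 and -0.89 to -0.76, do not overlap, with the 5' side changed more. That side is mostly 1 region of 9355 bp, with 20451 of its 24148 reads. The region runs from 1.175 to 10.53 of 19.405 kb, past the middle, and holds a stretch that only the genotype table lists. Where the middle falls depends on that stretch. No share over other genes is given for the split into sides. For Kmt2b, Kmt2c and Setd2 they overlap. Within the 3' side of Kmt2b, 3 short neighbouring regions stood out, with log2 changes of -2.35, -3.14 and -2.84 in the authors' deposited table and a ratio of 1.20 to 1.83 in Mettl3 KO cells, against 6.64 to 7.59 in wild-type cells. Their input was 1.8, 1.47 and 1.65 RPM in Mettl3 KO cells, against 1.29, 0.754 and 0.887 RPM in wild-type cells. Part of these changes thus lies in higher input, and the wild-type input rests on 58, 34 and 40 reads.

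**Figure D2:**
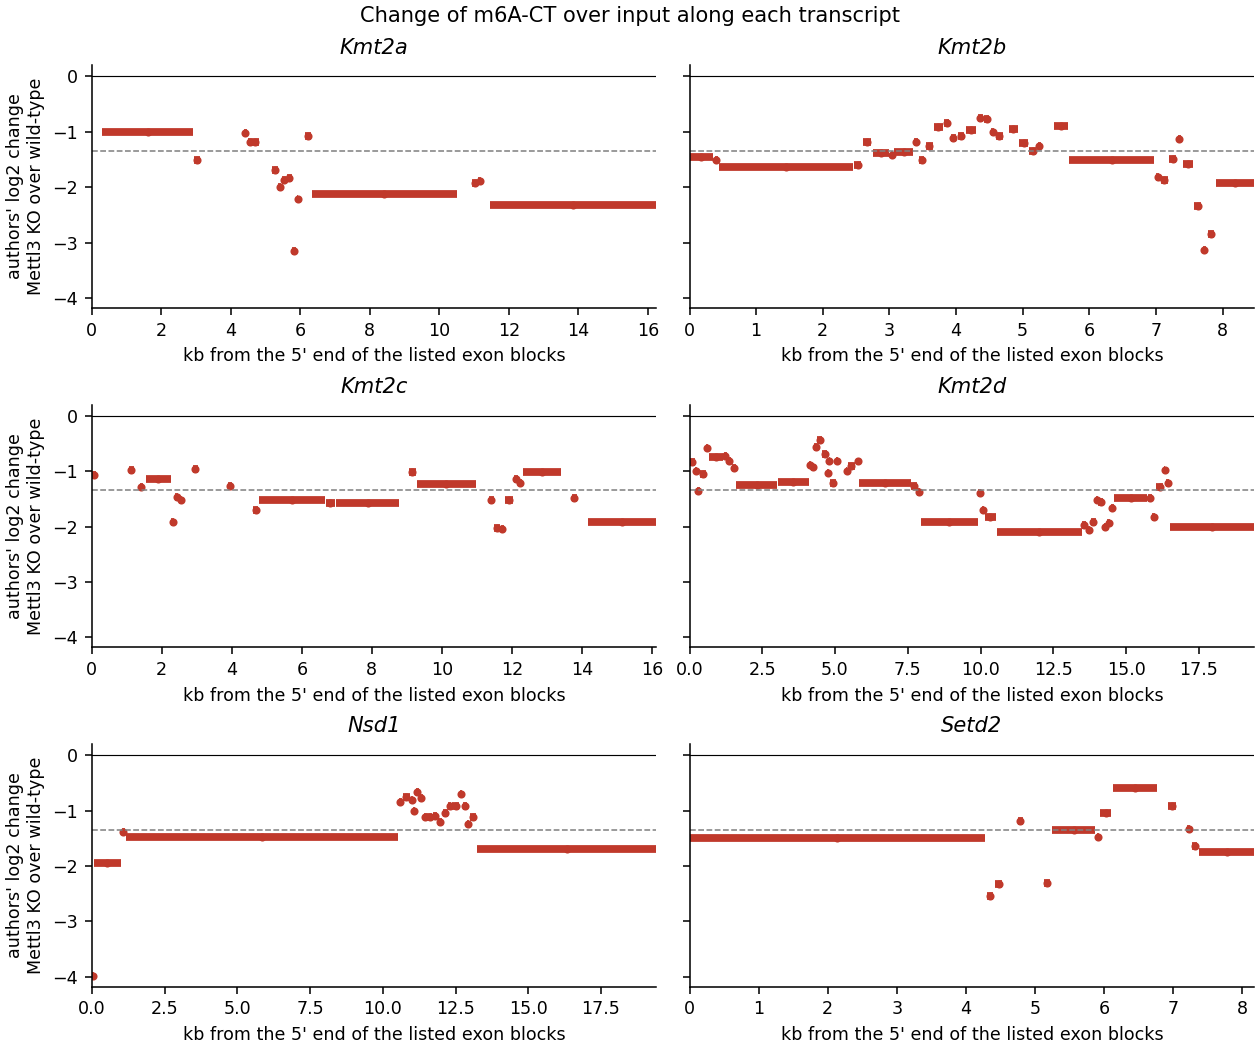
Log2 change of m6A-CT over input (Mettl3 KO over wild-type, authors' deposited table) against position in kb from the 5' end of the listed exon blocks, 1 panel for each gene. Each bar spans a region, the dashed line is the median of all regions (-1.35), and all 156 regions lie below 0. The median of Kmt2d regions is -0.93 on the 5' side and -1.70 on the 3' side. For Kmt2a the medians are -1.61 and -2.02, but its lowest region (-3.16) lies on the 5' side.

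Regions differed by their length as well. The 20 regions of at least 1000 listed bp and the 136 shorter ones were summed separately, a split chosen after the values had been seen. The wild-type ratio was higher over the long regions in 6 of 6 genes, as it was in 80.3% of the 3233 other genes with at least 50 reads in each class, with 6.82 against 3.94 for Kmt2b, 5.5 against 3.67 for Kmt2d and 8.95 against 6.84 for Nsd1. The log2 change was further below 0 over the long regions in 5 of 6 genes, against 46.5% of those other genes, and in 4 of them the intervals do not overlap. These 4 were Kmt2a, at -1.46 (-1.60 to -1.33) for long and -1.03 (-1.27 to -0.79) for short regions; Kmt2b, at -1.14 and -0.80; Kmt2d, at -1.11 and -0.70; and Nsd1, at -1.11 and -0.64. Kmt2c had -0.98 over both, and Setd2, with a single long region, had -1.07 and -0.82. Over the 3233 other genes, summed in the same way, the median wild-type ratio was 4.85 for long and 3.12 for short regions, and the median change was -0.82 for long and -0.90 for short regions. Long regions also hold more reads, and the part of position along the transcript was not tested apart from length.

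**Figure D3:**
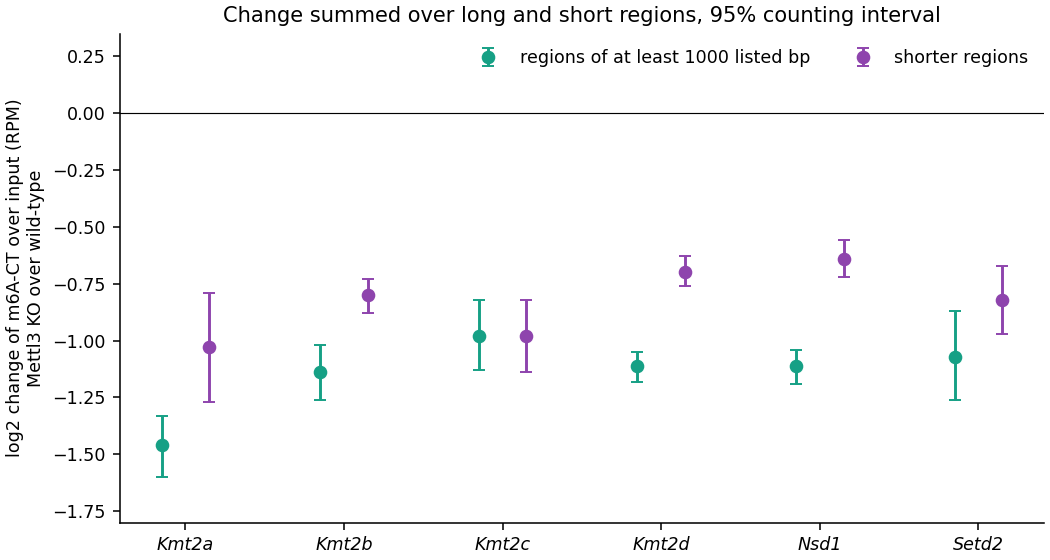
Log2 change of m6A-CT over input on the RPM scale (Mettl3 KO over wild-type) for regions of at least 1000 listed bp (left point) and shorter regions (right point) of each gene, with 95% counting intervals. The long regions lie lower in 5 of 6 genes, and Kmt2c is at -0.98 for both.

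The MeTPeak lists, called separately in each genotype from the same libraries, show how far a continuous peak extended. In Mettl3 KO cells the transcript of Kmt2a carried 7 peaks over 14855 exonic bp, the highest at 13-fold. In wild-type cells a single peak of 34 exon blocks covered 15398 of its exonic bp, with a fold enrichment of 46. Kmt2c had 11 peaks of up to 9.4-fold in Mettl3 KO cells and 2 of up to 26.6-fold in wild-type cells. Kmt2d had 8 peaks of up to 8.5-fold in Mettl3 KO cells and 2 of up to 26.7-fold in wild-type cells. In Kmt2d the peaks covered 7299 exonic bp in Mettl3 KO cells and 15134 in wild-type cells, and the stretch left without a peak lay mostly on the 3' side.

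Kmt2b had 2 peaks of up to 13.2-fold in Mettl3 KO cells and 1 of 27.1-fold in wild-type cells. The H3K36 enzymes kept 1 unbroken peak in each genotype. For Nsd1 it had a fold of 15.3 over 11236 exonic bp in Mettl3 KO cells and 30.7 over 12384 in wild-type cells. For Setd2 it had a fold of 17.1 over 7600 exonic bp in Mettl3 KO cells and 39 over 7700 in wild-type cells.

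Over the 6 genes, Mettl3 KO cells had 30 peaks and wild-type cells 8. In 6 of 6 genes Mettl3 KO cells had the lower maximal fold, where 76.7% of the 3950 genes with a peak in both genotypes did the same. More peaks were listed in Mettl3 KO for 4 of 6, against 54.2% of those genes, and fewer exonic bp were covered in 6 of 6, against 63.5%. The median of the highest fold over these 3950 genes was 5.46 in Mettl3 KO cells and 8.2 in wild-type cells, below every one of the 6 genes in the same genotype. The 3950 genes were not matched in length to the 6, which are among the longest. How the caller computes its fold is not stated, and 1 list for each genotype gives no error.

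**Figure D4:**
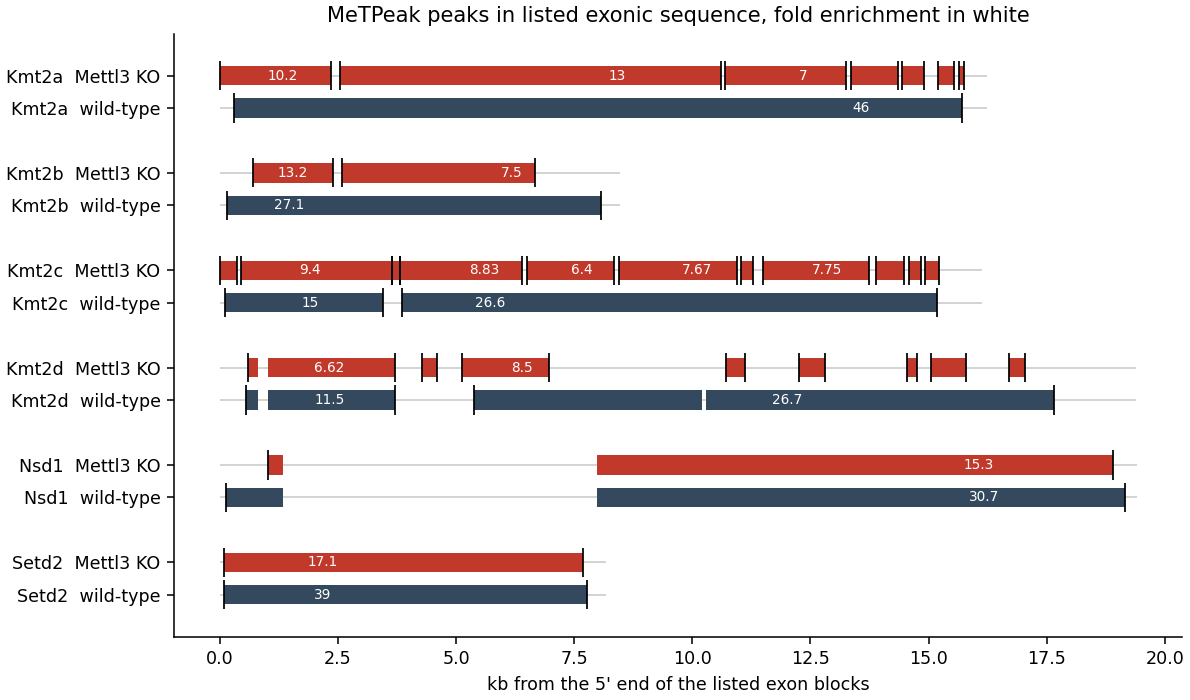
MeTPeak peaks along the listed exonic sequence (kb from the 5' end) in Mettl3 KO (upper bar, red) and wild-type (lower bar, blue), with fold enrichment in white for longer peaks and black ticks at peak ends. Kmt2a, Kmt2c and Kmt2d carry 7, 11 and 8 peaks in Mettl3 KO against 1, 2 and 2 in wild-type, and Nsd1 and Setd2 carry 1 in both; the gap within Nsd1 is a stretch that only the genotype table lists as a block.

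The peak lists of MEF, EPSC and E14 cells were set beside each other to see where the same transcripts carry peaks. The lists come from another antibody than the genotype set and were made with 1 list for each condition, so they are described without a test. MEF also differ from the stem cells in strain and in the detergent used on the nuclei, and these cannot be told apart from cell type. All 6 genes had at least 1 peak in MEF, in EPSC and in E14 cells at 100K. Among all genes with listed blocks, 39.8%, 27.4% and 19% had a peak in these lists. Among the 630 genes at least as long as Setd2, 75.9%, 62.7% and 53.3% had one. In E14 cells at 5K nuclei 5 of 6 genes had a peak, against 14.9% of all genes and 40.8% of long ones, and Setd2 had none. At 25K nuclei all 6 had one, against 9.97% of all genes and 32.9% of long ones.

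Every gene had most peaks at 100K nuclei, and the number rose at each step for Kmt2a, Kmt2c and Setd2. Kmt2a had 1 peak at 5K, 7 at 25K and 16 at 100K; in the same order Kmt2c had 2, 4 and 10, Setd2 had 0, 2 and 9, and Nsd1 had 4, 4 and 15. Kmt2d had 8, 6 and 13 peaks and Kmt2b 3, 1 and 4, so the smallest amount of nuclei gave more peaks than the middle one for these, the 2 genes with the most input per kb in the genotype set. The lists themselves held 4644, 3923 and 8052 peaks. The 5K list, longer than the 25K list, gave the 6 genes 18 peaks in all, against 24 at 25K and 67 at 100K.

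Between cell types, MEF had most peaks on 5 of the 6 genes. Kmt2c had 47 peaks in MEF, 15 in EPSC and 10 in E14 cells at 100K; Kmt2a had 31, 16 and 16; Setd2 had 19, 8 and 9. Kmt2d had 16, 11 and 13, and Kmt2b had 15, 9 and 4. The MEF counts depended on how a peak was assigned: with the exon blocks of the genotype table alone, Kmt2c had 23, 11 and 8 peaks and Kmt2a 13, 8 and 10. With at least 50% of a peak required inside blocks, Kmt2a had 18, 16 and 16, Setd2 12, 8 and 8, and Kmt2d 13, 11 and 13, so that Kmt2d was no longer highest in MEF alone. Peaks covered 90.8% to 95.8% of the listed exonic bases of these 5 genes in MEF, 47.3% to 81.6% in EPSC and 25.1% to 67.9% in E14 cells at 100K. The median over the 630 long genes was 28.6% in MEF, 4.17% in EPSC and 1.01% in E14 cells at 100K. The highest fold at a summit differed most in Kmt2b, with 19.5 in MEF, 8.41 in EPSC and 3.22 in E14 cells at 100K, and in Kmt2d, with 14.4, 7.55 and 4.54. Setd2 had nearly the same highest fold in all 3, 11.6, 10.8 and 11.5.

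The length of the lists moved with these counts. MEF had 38205 peaks, EPSC 12183 and E14 cells at 100K 8052. With every list cut to its 3923 peaks of highest -log10 q, the number in the shortest list, the 6 genes held 31 peaks in MEF, 33 in EPSC and 35 in E14 cells at 100K. In the same order Kmt2a then held 14, 6 and 9 peaks, Kmt2b 5, 5 and 1, and Kmt2c 4, 4 and 5. Kmt2d held 6, 4 and 7, Nsd1 0, 10 and 9, and Setd2 2, 4 and 4. Only Kmt2a was then highest in MEF alone. With peaks of a -log10 q of at least 20 they held 127 in MEF, 53 in EPSC and 31 in E14 cells at 100K. The first cut compares ranks in lists of unlike length, and whether the larger numbers in MEF go with depth, more RNA or more methylation was not tested.

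Nsd1 was the gene that did not follow the others. It had 20 peaks in MEF, 25 in EPSC and 15 in E14 cells at 100K, and peaks covered 41.5%, 54.6% and 44% of its listed exonic bases. Part of the low share comes from a block of 9388 bp, part of which the genotype table alone lists. Over the exon blocks of the MeTPeak lists, MEF peaks took in 65.1% of its bases, EPSC peaks 84.9% and the peaks of E14 cells at 100K 68.7%. The other 5 genes were at 96.2% to 100% in MEF by the same measure. The highest -log10 q of Nsd1 in MEF was 99.3, against 243 to 2165 for the other 5 genes.

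Merging overlapping peaks of the 5 lists gave 153 sites on the 6 genes. Of these 153 sites, 65 had a peak only in MEF. That share is below the 64.2% of the 32172 sites merged in the same way over all genes. It is also below the 61.5% of sites on genes at least as long as Setd2. A further 7 of the 153 had peaks in stem cell lists but not in MEF. This share, too, is below the 11.8% over all genes and the 6.46% over long ones. All 7 were sites of Nsd1, 4 of them in EPSC alone. They included the exon at chr13:55314569-55315532, with folds of 3.18 in EPSC and 3.81 in E14 cells at 100K, and 3 sites at the 3' end, between positions 55417188 and 55419133. The exonic site of Nsd1 with the highest fold in EPSC, chr13:55362852-55363234, had folds of 4.60 in MEF, 18.2 in EPSC and 8.14 in E14 cells at 100K.

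Sites called in all 5 lists numbered 10, on every gene but Setd2. Kmt2d held 4 of them, the largest number. The site at chr15:98663082-98665446, at the 3' end, had folds of 7.97 in MEF, 7.55 in EPSC, and 8.02, 5.69 and 2.69 in E14 cells at 5K, 25K and 100K. The site at chr15:98679666-98686845 had 14.4, 4.17, 6.12, 4.52 and 3.96 in the same order. The fold in E14 cells was lower at 100K than at 5K in both.

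Nsd1 held 3 of these sites, at its long inner exon (chr13:55346877-55349458), at chr13:55400982-55401384 and in its last region (chr13:55413413-55415695). Their folds in MEF were 12.8, 10 and 8.25, and in E14 cells at 100K 3.26, 3.25 and 5.42. Kmt2a, Kmt2b and Kmt2c held 1 each. The site of Kmt2c, chr5:24804669-24806419, had folds of 11.5 in MEF, 4.96 in EPSC, and 5.71, 9.1 and 4.74 in E14 cells at 5K, 25K and 100K. That of Kmt2b, chr7:31369441-31372393, takes in the most-read region of the genotype table, with folds of 9.15 in MEF, 6.26 in EPSC, and 4.99, 3.03 and 3.1 in E14 cells. The fold was highest in MEF in 9 of the 10 sites, the exception being the 3' site of Kmt2d, against 43.1% of the 471 such sites over all genes and 48.3% of the 172 on long genes.

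**Figure D5:**
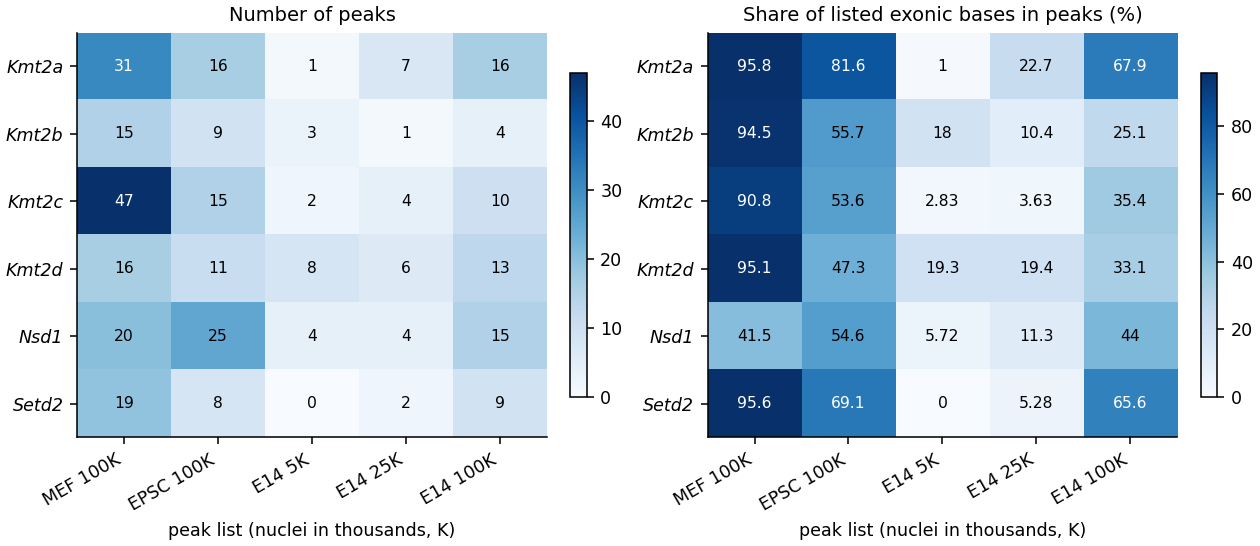
Number of peaks (left) and share of listed exonic bases inside peaks in % (right) for each gene in the lists of MEF, EPSC and E14 cells at 5K, 25K and 100K nuclei. MEF is highest on 5 of 6 genes, and Nsd1 has 20 peaks in MEF and 25 in EPSC.

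Genes that work with these enzymes or on the same marks were mostly lower in Mettl3 KO too. In 5 lists of 63 genes, 56 had a region, and by their most-read region 50 were lower and 6 higher at FDR under 0.05 in the authors' deposited table, beside 87.1% of genes lower in all. On the RPM scale 47 of the 56 lay below 0, and 42 did without the reads of Lars2 and Rn45s, whereas the most-read regions of the 6 enzymes lay below 0 on each scale. The median log2 change in the authors' deposited table was -1.67 for the 6 methyltransferase genes and -1.16 to -0.87 for the 5 lists, each gene by its most-read region. Over all of their 156 regions the 6 genes had a median of -1.27 in the authors' deposited table, close to the -1.35 of all regions.

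Of the COMPASS subunits, 14 of 15 were lower and 1, Psip1, whose protein binds menin, was higher at 0.81 in the authors' deposited table. The largest decreases in the authors' deposited table were -2.02 for Pagr1a, a subunit of the KMT2C and KMT2D complexes, -1.75 for Setd1b, another H3K4 methyltransferase, -1.42 for Dpy30, a core subunit, and -1.24 for Cxxc1, which binds unmethylated CpG in the SETD1 complexes. The core subunit genes Wdr5 (-0.76), Rbbp5 (-0.84) and Ash2l (-0.75), as well as Psip1, Kdm6a, Smyd1, Kdm4c, Dnmt3b, Phf19 and Msl3 in this account, were named after their values were seen. The 3 core subunits were lower by less than the median region in that table. Kdm6a, an H3K27 demethylase found in the KMT2C and KMT2D complexes, was at -0.52 in the authors' deposited table, and at -0.03 on the RPM scale.

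Among the genes listed as other H3K4 and H3K36 methyltransferases, 9 of 10 were lower, and the higher one, Smyd1, rested on 41 reads. A place on this list does not mean that activity on these marks is established, Kmt2e and Setd5 included. Nsd2 and Nsd3, the paralogues of Nsd1, were at -2.07 and -1.50 in the authors' deposited table, Setd5 at -2.00 and Kmt2e at -1.35. Among methyltransferases for other lysines, 10 of 10 were lower, led by the H4K20 enzyme Kmt5b (-2.01) and the H3K9 enzymes Ehmt1 (-1.83) and Suv39h1 (-1.55), followed by Kmt5c (-1.38), in the authors' deposited table. The demethylases that remove H3K4 or H3K36 methylation were lower in 9 of 10, with Kdm1b (-1.54), Kdm4b (-1.52), Kdm5c (-1.42) and Kdm5a (-1.32) leading in the authors' deposited table and Kdm4c higher at 1.20. The value of Kdm1b rested on 129 reads in a region of 25 bp (counting SE 0.53).

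Readers of H3K36 methylation were lower in 8 of 11, and Dnmt3b (462 reads), Phf19 (19 reads) and Msl3 (23 reads) were higher. The largest value in the authors' deposited table, -4.38 for Phf1, rested on 62 reads, and Glyr1 (-1.39), Brpf1 (-1.20) and the DNA methyltransferase Dnmt3a (-1.07) followed. With each gene taken by its region of largest absolute change instead, the readers were lower in 7 and higher in 4, and the methyltransferases for other lysines lower in 8 and higher in 2.

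A smaller share of these genes than of the 6 enzymes carried peaks. In MEF, 8 of 15 COMPASS subunits and 7 of 10 genes listed as other H3K4 and H3K36 methyltransferases had a peak. So did 8 of 12 methyltransferases for other lysines, 9 of 10 demethylases and 6 of 12 readers. In E14 cells at 100K the counts were 5, 3, 6, 4 and 3 of the same totals. The genes differ in length, which was not matched.

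The genes whose pattern was most like the mean of the 6 were found over 7 values, the log2 of 1 plus the highest fold in the 5 peak lists and the 2 MeTPeak lists. They were Suz12, a core subunit of Polycomb repressive complex 2, with a Euclidean distance of 0.60, Phf3 (0.63), Dcp2, which encodes an mRNA decapping enzyme (0.65), Birc6 (0.68) and Neo1, a netrin receptor (0.76). The 6 genes themselves lay between 0.95 for Nsd1 and 2.48 for Setd2, which had no peak at 5K. For Suz12 the highest MeTPeak fold was 13.4 in Mettl3 KO cells and 26.4 in wild-type cells, and the highest fold in MEF was 17.9.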

How the data were processed

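m6A-CT and input libraries were analysed from tables that the authors deposited. The members and lists were chosen with earlier results of these data known. Trimming with Trim Galore, alignment to mm9 with STAR 2.7.2 and peak calling with MACS2 are given per the submitters' processing notes; MeTPeak and exomePeak2 are named in the labels. Whether replicates were pooled for the peak lists is not given in the sources used here.

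In the MACS2 lists the deposited fold is the ratio at the summit, the deposited score is the rounded -log10 q multiplied by 10, and -log10 p and -log10 q are deposited as the caller wrote them, with 10 as the lowest -log10 q. In the MeTPeak lists the deposited fold is that of m6A-CT over input as the caller gives it. These lists also have deposited columns for the p-value, for p and FDR as log10, and for exon blocks. The deposited RPM values of the exomePeak2 table are reads per 1000000 over both replicates of a group, and the deposited log2 fold change, with its p-value and FDR, sets Mettl3 KO over wild-type and comes from the authors' model, not from the ratio of these columns.

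Reads were recovered from the RPM values. In the wild-type m6A-CT column 100% of these were whole to within 0.01 reads, a margin that was widened in proportion for high counts. The ratio of a gene is m6A-CT RPM over input RPM summed over its regions, with a 95% Poisson interval. A counting test on these reads took the ratio of both genotypes' ratios, with 0.5 reads added and Benjamini-Hochberg adjustment over all regions. It was run on simulated Poisson reads that held no PCR copies and no spread between replicates. That run cannot show how the test behaves where these are present. The test compares pooled libraries, not conditions. edgeR was not run because no file holds counts for single libraries. A peak was assigned to a gene if it overlapped a listed exon block by at least 1 bp on either strand, so overlapping genes cannot be told apart. Named genes were the 6 members, Mettl3, up to 4 genes of each list with the largest absolute change in the authors' deposited table among those with at least 50 reads in their most-read region, and the 5 genes closest to the members over 7 values; others are said to be chosen after their values were seen. No sequence is printed, since no genome of the mm9 build was used here. Python 3.11.15, pandas 2.3.3, numpy 2.4.6, scipy 1.17.1 and matplotlib 3.10.9 were used.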

Additional observations from a re-analysis of the deposited data

Results flagged for a closer look

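Among peaks that lie between the listed exon blocks, and so enter no count above, both that recur across lists were 100 bp long with the same ends in each list. One lies within Setd2, at chr9:110455107-110455206, with folds of 57 in EPSC and 97.3, 99.4 and 29.7 in E14 cells at 5K, 25K and 100K, and no peak in MEF. The other lies within Kmt2a, at chr9:44683268-44683367, with folds of 26 in EPSC and 24.8, 40.2 and 30.8 in E14 cells at 5K, 25K and 100K, and again none in MEF. These folds are above the highest exonic fold of the same gene in each of those lists, except that Setd2 had no exonic peak at 5K to set beside it. They were singled out because they hold a signal outside the exonic sequence that the other values rest on, and no library without m6A antibody has a peak list to set them against.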

How the results depend on the processing

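The median log2 change over the 6 most-read regions was -1.67 and stayed below 0 in every alternative: -1.17 for the same regions on the RPM scale, to which the values that follow also belong, -1.0 without Lars2 and Rn45s, -0.92 with all regions summed, and, in splits chosen after seeing the data, -1.11 over long and -0.81 over short regions and -0.98 over the 5' and -0.88 over the 3' side. Leaving out Lars2 and Rn45s took the median ratio of the 6 genes to 1.89 in Mettl3 KO cells and 3.24 in wild-type cells, against 4.53 and 8.72 with all reads. It turned their median input difference from -0.21 to 0.10, with Kmt2b at 0.09 and Nsd1 at 0.12. At a -log10 q of at least 20 the genes held 127 peaks in MEF, 53 in EPSC and 8, 7 and 31 in E14 cells at 5K, 25K and 100K; with lists of equal length they held 31 in MEF, 33 in EPSC and 35 in E14 cells at 100K. The counting test called 118 of the 156 regions, beside 22180 of all regions (18516 lower, 3664 higher). Of the alternatives for single genes, 102 left the value the same by the rule used and 112 moved it, none with a change of sign beyond those given. Peak counts have no sign, so the rule does not register the changed order of cell types with lists of equal length. No paired analysis was possible because each column or list stands for a whole group and carries no replicate, so single replicates could not be left out either. The depth of the peak lists is unknown, and what they hold per read could not be set against input.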
